A study of Canis lupus familiaris with 30 samples.

Results

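The insulin-like growth factor (IGF) axis and the IGF2BP RNA-binding genes were described in 30 canine thyroid carcinomas (TC) by RNA-seq. The members were chosen by gene symbol: *IGF1*, *IGF2*, *IGF1R*, *INSR*, *IRS1*, *IRS2*, *IGF2BP1*, *IGF2BP2*, *IGF2BP3* and *HMGA2*. Of these 10 genes, 8 had a row among the 30424 genes of the count table. *IRS1* and *HMGA2* had no row under those symbols and were not analysed here. Each sample was total RNA of primary tumor tissue from the thyroid gland of a dog, 1 library per tumor, depleted of ribosomal RNA. The study divides these tumors into follicular (FTC) and medullary (MTC) carcinomas. Groups were taken here from the sample labels alone, which name each tumor but no tumor type, so no comparison between FTC and MTC was made and every value below belongs to a single tumor or to the whole set.

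In this axis the secreted ligands IGF1 and IGF2 bind the receptor tyrosine kinase IGF1R, while INSR binds insulin and, in 1 of its isoforms, IGF2. Both receptors phosphorylate the scaffold proteins IRS1 and IRS2, which recruit PI3-kinase and so activate AKT and mTOR, and in thyroid follicular cells insulin and IGF signals act together with TSH on growth. The IGF2BP proteins bind mRNAs, *IGF2* and *MYC* mRNA among them, and affect their stability and translation. They are abundant in the embryo, mostly low in adult tissue and present again in many carcinomas, and the chromatin protein HMGA2, like the IGF2BP family, is a target of let-7 microRNAs.

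The libraries held 12288945 to 45148677 reads assigned to genes (median 25569678), and no 2 columns of the table were the same. A level here is log2(n + 1), where n is the normalized count, scaled by median-of-ratios size factors. Counts were not divided by gene length, so levels are compared between tumors and not between genes. The size factor was lowest in TC538, at 0.279, and at most 1.62 elsewhere. Ward clustering on 760 variable genes, the members left out, put 25 tumors on one branch and TC1020, TC1473, TC1601, TC1936 and TC2289 on the other. The summed level of the C-cell markers ranged from 6.95 to 19.50 over the 30 tumors and that of the follicular cell markers from 8.08 to 22.75. TC1088 had the lowest follicular sum, with 12 counts of *TG*, which encodes thyroglobulin, and 1 count of *TSHR*, the TSH receptor. The bulk RNA of a tumor holds all of its cell types, so fewer cells of a type and less RNA per cell cannot be told apart.

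The 8 measured members had very unequal spreads over the tumors. The level of *IGF2BP2* spanned 9.76 on the log2 scale, and its SD was above that of 99.1% of the 18711 genes that passed the count limit (10 or more counts in 5 or more tumors). *IGF2* followed, with a span of 8.42 and an SD above that of 92.8% of genes, and then *IGF1*, with 6.14 and 86.8%. The SD of *IGF2BP3* lay above that of 80.4% of genes and that of *IRS2* above 67.7%. The 2 receptor genes were the least variable of the members that passed the count limit, *IGF1R* at 61.1% and *INSR* at 58.3%.

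**Figure D1:**
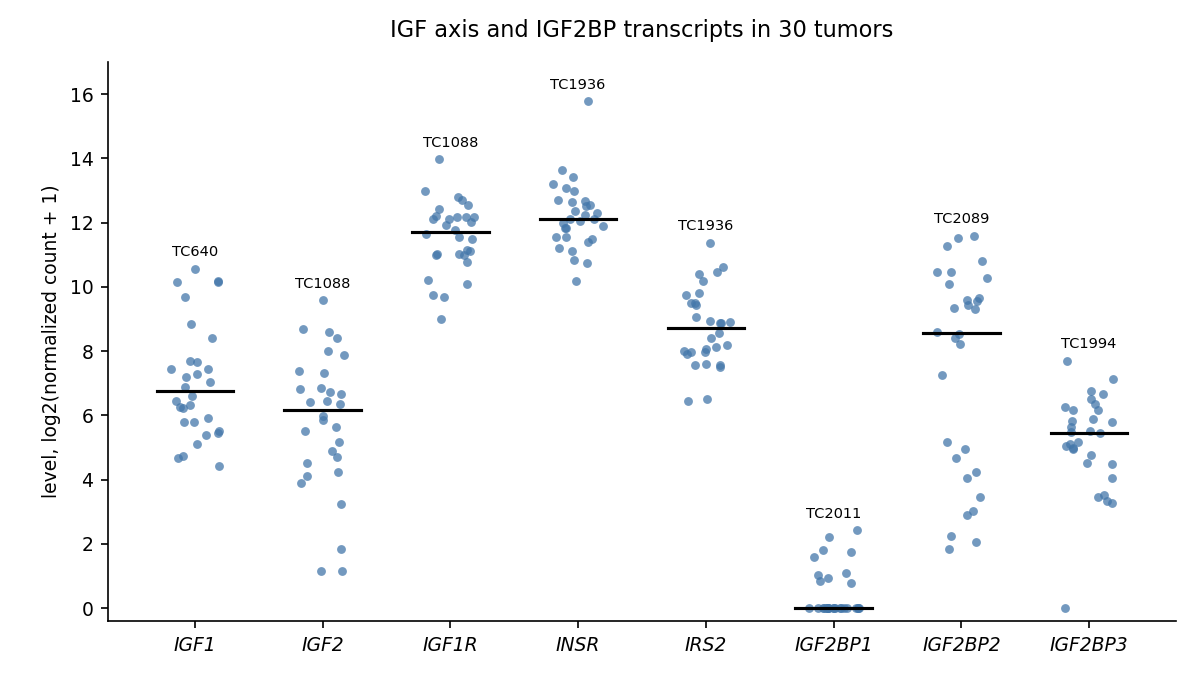
Level of each of the 8 measured members, as log2 of the normalized count plus 1 (y axis), with 1 point per tumor (n = 30), the median as a black line and the highest tumor named. *IGF2BP2* spread from 1.83 to 11.60, *IGF2BP1* stayed at or below 2.42, and *INSR* had TC1936 alone at 15.78. Levels of different genes are not comparable, since counts were not divided by gene length.

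*IGF1* (ENSCAFG00000007304), the ligand that growth hormone induces in liver and that stromal cells also make, had 19 counts in the lowest tumor by count and 1874 in the highest. Its level was 4.41 in TC1020, 6.75 at the median and 10.56 in TC640, which was 13.9-fold above the median. Above a gap of 0.85 lay 5 tumors, namely TC640 at 10.56, TC1218 at 10.17, TC22 at 10.15, TC1123 at 10.14 and TC1994 at 9.70. The next tumor was TC2089 at 8.85. In TC640, the 6 genes flanking *IGF1* lay between 0.81 above (*NUP37*) and 2.00 below (*STAB2*) their medians, and *IGF1* itself lay 3.80 above.

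*IGF2* (ENSCAFG00000010090), the fetal growth factor that is imprinted in mammals, was counted once in TC627 and 766 times in TC1088. Its level was 1.16 in TC1218, 6.16 at the median and 9.58 in TC1088, 10.7-fold above the median. TC640 at 8.68, TC1601 at 8.59 and TC812 at 8.41 followed TC1088. At the low end, TC1218 and TC1164 had 2 counts each and TC627 had 1, all within the limit of 3 counts that a count of 0 allows, so *IGF2* was not distinguishable from 0 in these 3 tumors at this depth. The neighbouring insulin gene *INS* had between 0 and 6 counts per tumor. In TC1088 the flanking gene *CD81* lay 0.04 above its median, while the other 5 neighbours lay between 0.63 (*TSSC4*) and 2.29 (*CTSD*) below theirs.

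*IGF1R* (ENSCAFG00000010881) encodes the receptor for both ligands. It was counted in every tumor, between 583 and 16267 times. Its level was 9.00 in TC1869, 11.71 at the median and 13.98 in TC1088. TC1088 stood 0.99 above the next tumor, TC1953 at 13.00, and TC1869 was followed from below by TC1994 at 9.70 and TC1979 at 9.76. *TG* was counted 7548843 times in TC1869, the highest value of the 30 tumors, and 2247666 times in TC1994, but 10174 times in TC1979, rank 25, while TC1088 had the lowest count. Over the 25 tumors of the larger branch of the clustering, *IGF1R* and *TG* had a Spearman's rho of -0.26 (p = 0.213 by permutation).

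The genes next to *IGF1R* were also high in TC1088. *SYNM*, which encodes an intermediate filament protein, lay 2.26 above its median, *PGPEP1L* 4.15 and *ARRDC4* 2.32, each at its highest level of the 30 tumors, as 5.61% of all genes tested were in TC1088. *NR2F2*, a nuclear receptor gene, lay 1.52 above its median and had its second highest level there. Over the 10 genes on each side, the deviation of TC1088 had a median of 0.62 and ranged from 5.39 below (*ST8SIA2*, with 0 counts) to 6.51 above (*ALDH1A3*), against -0.01 for the median of all genes tested in that tumor. Of these 20 neighbours, 8 had their highest or second highest level in TC1088, which 10.4% of all genes tested had. Beyond *SYNM*, the next 4 genes, *TTC23*, *LRRC28*, *MEF2A* and *LYSMD4*, lay between 0.25 and 0.37 above their medians. Gene order was that of another assembly than the one used for counting, the widening to 10 neighbours was chosen after the closest ones were seen, and copy number was not analysed here.

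**Figure D2:**
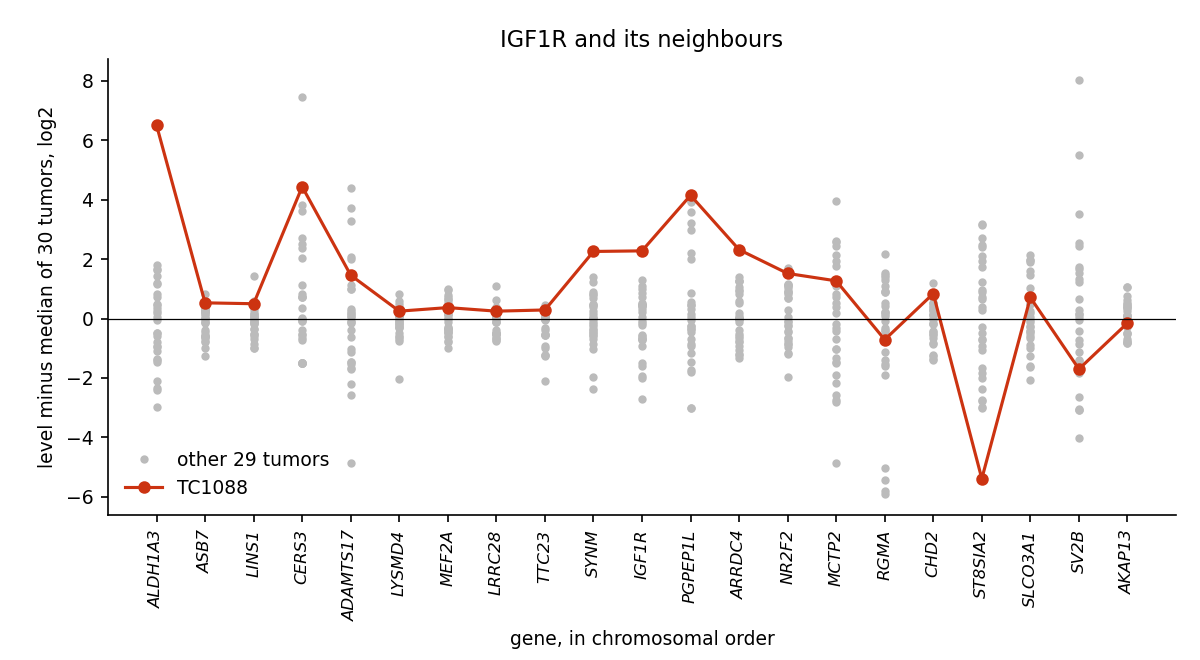
Level minus the median of the 30 tumors (y axis, log2) for *IGF1R* and up to 10 counted genes on each side in chromosomal order (x axis, order only, not to scale). The red line joins the values of TC1088 and grey points are the other 29 tumors. TC1088 has the highest level of *SYNM*, *IGF1R*, *PGPEP1L* and *ARRDC4* in a row, while the neighbours farther out vary in both directions.

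*INSR* (ENSCAFG00000018170), the insulin receptor gene, had a level of 10.19 in TC640, 12.11 at the median and 15.78 in TC1936. TC1936 had 53023 counts and lay 12.7-fold above the median, with a gap of 2.14 to TC1601 at 13.64. TC1020 at 13.41, TC1979 at 13.21 and TC2289 at 13.07 came next. All other tumors lay at or below 12.98, and the lowest count, 478 in TC538, came with the smallest size factor. The counts do not separate the INSR isoforms.

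TC1936 also had the most counts of *CALCA*, the calcitonin gene, at 586358, the highest summed level of the C-cell markers, at 19.50, and a follicular sum of 13.02, rank 26 of 30. TC1020 had 439003 counts of *CALCA* and TC1601 had 132876, ranks 2 and 4. TC1473, rank 3 with 247126 counts of *CALCA*, was rank 10 in *INSR*. TC2289, rank 5 in *INSR*, had 95 counts of *CALCA* but a summed level of the C-cell markers of 18.06, rank 5 of 30. TC1936, TC1020, TC1473, TC1601 and TC2289, the smaller branch of the clustering, were ranks 1 to 5 in that sum, at 18.06 or more. TC22 followed at 13.19. In *INSR* these tumors of the smaller branch had ranks 1, 3, 10, 2 and 5, in the same order. TC1979 and TC1869, ranks 4 and 6 in *INSR*, lay on the larger branch, and *CALCA* was counted 115 times in TC1869. The part of C-cell content in the *INSR* level was not tested. The 6 genes next to *INSR* lay between 0.14 (*ARHGEF18*) and 1.69 (*OR7D7*, with 10 counts) above their medians in TC1936, and *INSR* itself 3.66 above.

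*IRS2* (ENSCAFG00000006058), which links both receptors to PI3-kinase, had a level of 6.46 in TC2402, 8.71 at the median and 11.38 in TC1936. TC1936 was thus the highest tumor for both *INSR* and *IRS2*, and TC1601 the second highest for both, at 10.62 for *IRS2*. TC627 at 10.47, TC1869 at 10.41 and TC1744 at 10.20 followed. TC1473, at 6.51 for *IRS2*, and TC2402 lay 1.01 below all other tumors. Of the flanking genes, *RAB20* lay 1.77 and *MYO16* 2.00 above their medians in TC1936, the latter with 18 counts, while the collagen genes *COL4A1* and *COL4A2* lay 0.41 and 0.75 below.

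Reads of *INSR* per read of *IGF1R* within a tumor, a ratio that does not depend on the size factor, ranged from 0.137 in TC1088 to 15.8 in TC1869, a 115-fold span around a median of 1.11. The lowest ratios after TC1088 were 0.174 in TC640 and 0.396 in TC2402, and the highest before TC1869 were 10.9 in TC1979 and 10.2 in TC1936. In TC1869 and TC1088 the extreme ratio came mainly from *IGF1R*, and in TC1936 from *INSR*. The ratio is a comparison between tumors only, since the counted lengths of the genes differ.

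Among the RNA-binding genes, *IGF2BP1* (ENSCAFG00000016907) was barely detected. It had 0 counts in 20 tumors, between 1 and 3 counts in 9, and 5 counts in TC2011, its highest. A count of 0 allows up to 3 counts, which corresponds to a level of at most 1.51 in TC1218 and 3.56 in TC538. *IGF2BP1* was therefore not detectable above that limit in 29 of 30 tumors and did not enter the correlation tests.

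*IGF2BP2* (ENSCAFG00000013297), the paralog that adult tissues also use and that lies in a human type 2 diabetes risk locus, was counted between 2 and 3237 times. Its level was 1.83 in TC2289, 8.58 at the median and 11.60 in TC2089. TC812 at 11.53, TC1953 at 11.29 and TC640 at 10.82 followed TC2089. The largest gap between consecutive tumors was 2.11, from TC1473 at 7.27 to TC2288 at 5.16, and it left 19 tumors above and 11 below. In TC2289, TC538, TC1936 and TC627 the count was 2 or 3, within the limit for a count of 0. TC538 was the shallowest library, at a size factor of 0.279, but TC2289, TC627 and TC1936 had size factors between 0.781 and 0.946.

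In TC2089 the genes flanking *IGF2BP2* lay between 1.21 above (*TMEM41A*) and 1.27 below (*ETV5*) their medians, and *IGF2BP2* itself lay 3.02 above. The closest neighbours, *SENP2* and *TRA2B*, lay 0.30 and 0.58 above. TC2089 was also second of the 30 tumors in the summed level of the fibroblast markers, at 16.54. Over the 25 tumors of the larger branch, the 8 fibroblast markers had a median Spearman's rho of 0.16 with *IGF2BP2*, and 0 of them had a permutation p below 0.05.

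*IGF2BP3* (ENSCAFG00000002766), the paralog that gene fusions activate in some human thyroid cancers, was counted at most 198 times. Its level was 0 in TC1088, 5.46 at the median and 7.71 in TC1994. TC902 at 7.14 and TC67 at 6.76 followed TC1994. TC1088 had 0 counts at a size factor of 1.00, and the next lowest tumor, TC1601, had a level of 3.26 from 10 counts. In TC1994 the neighbouring genes *TRA2A*, *CCDC126* and *FAM221A* lay 0.07, 0.25 and 0.34 above their medians, *FAM126A* 1.22 above and *MALSU1* 0.43 below. *GPNMB*, a macrophage and melanocyte gene on the same side as *MALSU1*, lay 4.53 above with 20750 counts, and TC1994 was second of the 30 tumors in the summed level of the leukocyte markers, at 13.47.

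**Figure D3:**
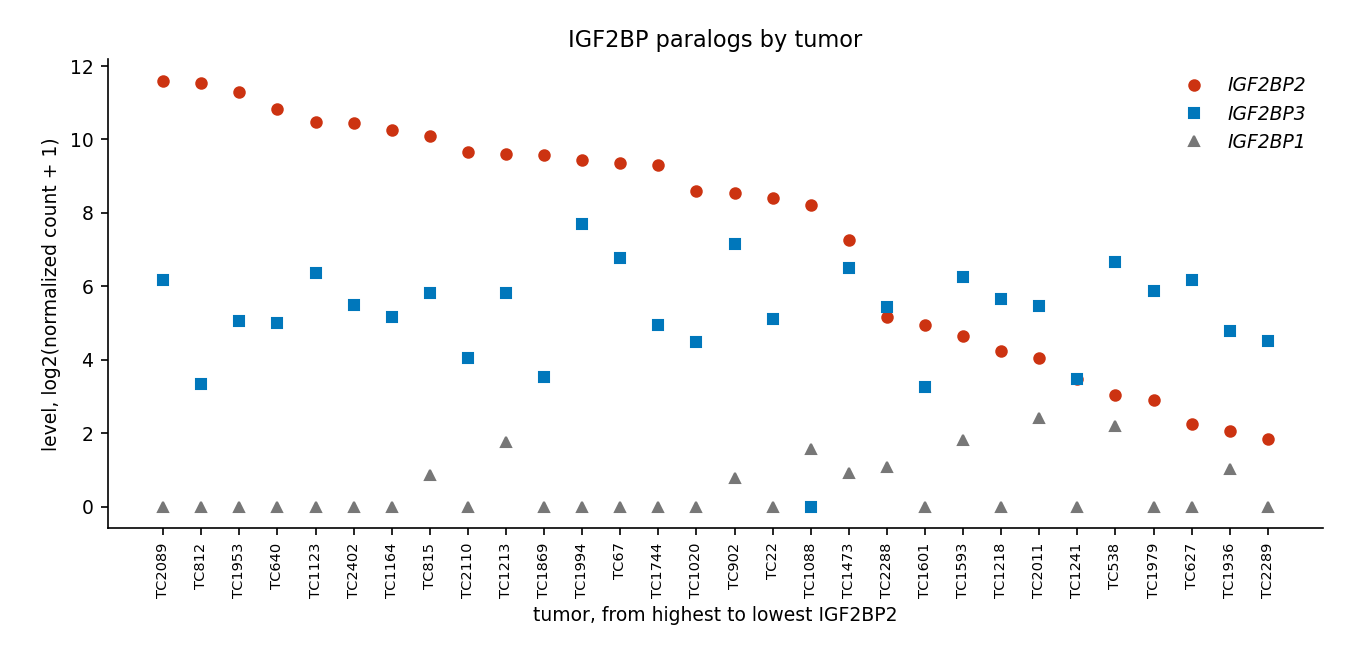
Levels of the 3 *IGF2BP* paralogs (y axis, log2 of the normalized count plus 1) in each of the 30 tumors, ordered from the highest to the lowest *IGF2BP2* (x axis). *IGF2BP2* falls from 11.60 to 1.83 with its largest step below TC1473, *IGF2BP3* shows no matching step, and *IGF2BP1* is at 0 in 20 tumors.

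Whether the members moved together was asked over the 25 tumors of the larger branch, because the branches lay apart and a pooled coefficient would mix them. Each member that passed the count limit was correlated with all other genes by Spearman's rho, with 100000 permutations and Benjamini-Hochberg adjustment over the 18710 genes tested per member. For all 7 members, 0 genes had an adjusted p below 0.05, which is 0% of the genes tested. A single gene at the smallest p the permutations can give, 1e-05, has an adjusted p of 0.187, so the number of permutations limited this count. At an unadjusted p below 0.05 there were 981 genes for *IGF2BP2* (5.24%), 1537 for *IRS2* (8.21%) and 1695 for *IGF1R* (9.06%). The share was 10.6% for *IGF1* (1976 genes), 11% for *IGF2* (2052), 17.3% for *IGF2BP3* (3231) and 20.1% for *INSR* (3761). With the t approximation of the p, chosen after seeing the data, 31 genes were called for *INSR*, 20 for *IGF1*, 6 for *IRS2*, 4 for *IGF2*, 1 each for *IGF1R* and *IGF2BP3*, and 0 for *IGF2BP2*. A single tumor also moved the permutation count: without TC1088, 40 genes were called for *IGF2BP3*, 8 for *IRS2* and 4 for *IGF1*, and without TC538, 5 were called for *IGF1*.

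None of the 21 pairs of members had an adjusted p below 0.05 in these permutation tests, and 3 pairs had an unadjusted p below 0.05. The lowest rho was that of the 2 receptors, which did not pass the adjusted test: *IGF1R* and *INSR* gave a rho of -0.51 (p = 0.00867 by permutation, adjusted p = 0.138 over the genes tested against *INSR* and 0.388 over those tested against *IGF1R*). Pearson's r was -0.56 (p = 0.00324) and remained -0.52 (p = 0.0108) without TC1869 and TC1994, the tumors farthest from the median *IGF1R*. The ligand *IGF1* and the adaptor *IRS2* gave a rho of -0.46 (p = 0.0213 by permutation, adjusted p = 0.385 and 0.513), an r of -0.36 (p = 0.0757) and an r of -0.32 (p = 0.134) without TC640 and TC1218. *IGF2BP3* and *IGF1R* gave a rho of -0.42 (p = 0.0383 by permutation, adjusted p = 0.271 and 0.515) and an r of -0.42 (p = 0.0356). That relation rests on TC1088 and TC1994, without which r was -0.04 (p = 0.868).

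For the other 18 pairs rho lay between -0.36 and 0.31. *IGF2BP2* had a rho of 0.24 (p = 0.239) with *IGF2*, whose mRNA its protein binds, and -0.18 (p = 0.377) with its paralog *IGF2BP3*. *IGF2BP3* and *IGF2* had a rho of -0.36 (p = 0.0751). The 2 ligands had a rho of -0.15 (p = 0.476) with each other, and *IGF1* had -0.07 (p = 0.73) with its receptor gene *IGF1R*. *INSR* and *IRS2* had a rho of 0.27 (p = 0.193).

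**Figure D4:**
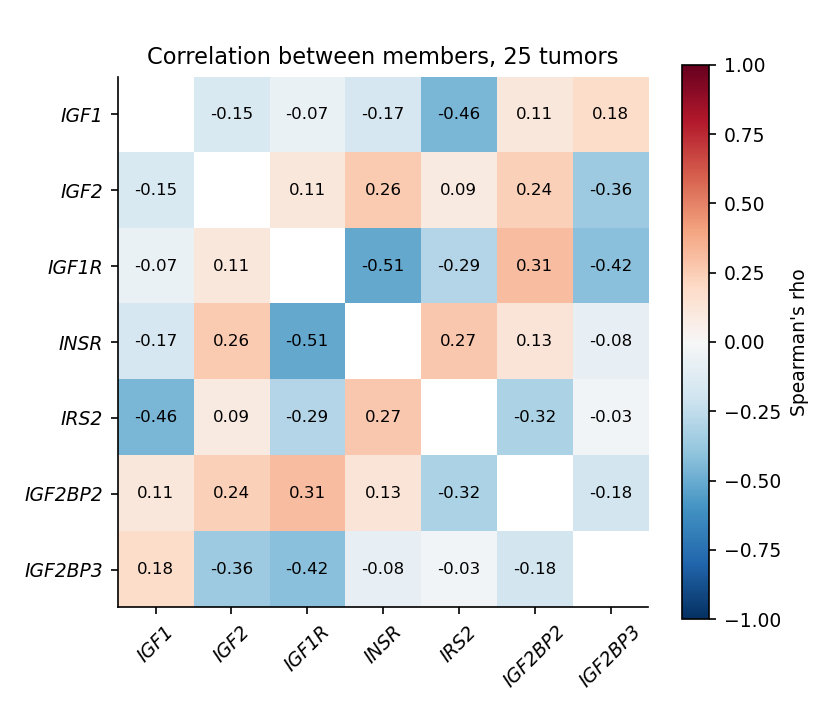
Spearman's rho between the 7 members that passed the count limit, over the 25 tumors of the larger branch. Colour and number give rho on a scale from -1 to 1. The lowest value is that of *IGF1R* with *INSR*, at -0.51, and the highest that of *IGF1R* with *IGF2BP2*, at 0.31.

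Markers of the tumor stroma were set beside both receptors, and none passed the adjusted test with either. The 6 endothelial markers had a median rho of -0.51 with *IGF1R*, and 5 of them had a negative rho at an unadjusted p below 0.05, among them *CDH5* and *KDR* at -0.52 each, beside 5.61% of all genes. With *INSR* their median rho was 0.43, and 4 had a positive rho at that p, with *VWF*, which encodes von Willebrand factor, at 0.69, beside 9.7% of all genes. The 8 fibroblast markers had a median rho of -0.39 with *IGF1R* (4 negative below that p, beside 5.61% of all genes, *PDGFRB* at -0.56) and of 0.53 with *INSR* (5 positive below that p, beside 9.7% of all genes, *COL1A2* at 0.62). The median over all genes tested was 0 for *IGF1R* and 0.04 for *INSR*. The adjusted p values were 0.0835 for *VWF* with *INSR* and 0.333 for *PDGFRB* with *IGF1R*. Over the 30 tumors the summed level of the fibroblast markers ranged from 11.81 to 18.31 and that of the endothelial markers from 11.27 to 14.83. The C-cell genes *SCG2*, *CALCB* and *RET* and the follicular genes *SLC5A5* and *TSHR* also had a negative rho with *IGF1R* at that p, from -0.59 for *SLC5A5* to -0.43 for *TSHR*. On the larger branch *CALCB* reached 10 counts only in TC22, TC1213 and TC1218, so it passed the count limit only with tumors of the smaller branch. Its rho therefore mostly ranks counts near 0. The part of cell content in the receptor levels was not tested. *INSR* also had a rho of 0.49 (permutation test, p = 0.0129) with the first principal component of all genes tested, which held 20.2% of their variance, and of 0.33 (p = 0.109) with the size factor.

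**Figure D5:**
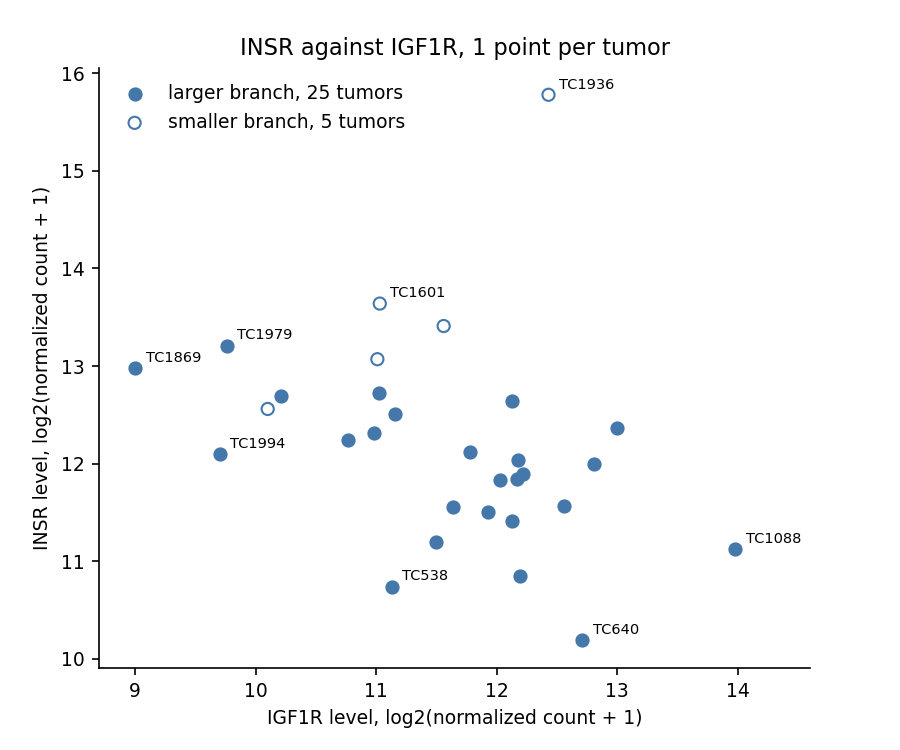
*INSR* level against *IGF1R* level, both as log2 of the normalized count plus 1, with 1 point per tumor. Filled points are the 25 tumors of the larger branch of the clustering, over which rho was -0.51, and open points the 5 tumors of the smaller branch. TC1869 and TC1088 mark the ends in *IGF1R*, and TC1936 lies apart in *INSR*.

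Of the 58 other pathway genes listed, 55 had a row and 51 passed the count limit. None had an adjusted p below 0.05 with any member. At the unadjusted p below 0.05, 16 of the 51 had a positive and 5 a negative rho with *INSR*, beside 9.7% and 10.4% of all genes. These included 4 of 7 secreted binding proteins, all positive, with *IGFBP7* at 0.61 and *IGFBP6* at 0.53, and the adaptors *SHC1* at 0.62 and *GRB10* at 0.55, the latter an inhibitory adaptor of both receptors. Of the catalytic PI3-kinase subunits, *PIK3CB* and *PIK3CA* had a rho of -0.66 and -0.48 with *INSR*, while *PIK3CD* had 0.48. *AKT1* had 0.53, and the mTOR complex subunits *RPTOR* and *RICTOR* had 0.55 and -0.46, so neither group went in 1 direction. The smallest adjusted p of these was 0.0951, for *PIK3CB*.

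With *IGF1R*, 1 pathway gene had a positive and 9 a negative rho at the unadjusted p below 0.05, beside 3.45% and 5.61% of all genes. The positive one was the regulatory PI3-kinase subunit *PIK3R1*, at 0.54. *PAPPA2* and *PAPPA*, proteases that release IGF from its binding proteins, had a rho of -0.52 and -0.42, *IGFBP7* had -0.51 and *GRB10* -0.51. Over all 30 tumors, *PAPPA2* itself ranged from 0 counts to 292388 in TC1936, the tumor highest in *INSR* and *IRS2*. TC1936 was not among the 25 tumors of these coefficients, and its *IGF1R* level was 12.43, rank 6 of 30.

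*IGF2* had 6 positive and 0 negative pathway genes at that p, beside 5.75% and 5.22% of all genes. The highest was *IGFBP6*, a binding protein with a preference for IGF2, with a rho of 0.58 (adjusted p = 0.285), followed by the transcription factor gene *FOXO4* at 0.55. Of the 7 muscle markers that passed the count limit, 2 reached that p with *IGF2*, *DES* at 0.57 and *CKM* at 0.46. The median rho of that list was 0.15, and *TTN* was at -0.24. The adipocyte marker *PLIN1* at 0.48, the fibroblast marker *PDGFRA* at 0.43 and the follicular marker *DIO2* at 0.42 also reached that p. The part of these cell types in the *IGF2* level was not tested. *IGF1* had 1 positive and 2 negative pathway genes, beside 4.82% and 5.74% of all genes, namely *STC1*, an inhibitor of PAPPA proteases, at 0.43, *FOXO4* at -0.49 and *HMGA1* at -0.47. The endothelial markers *PECAM1* and *TEK* had a rho of 0.47 and 0.44 with *IGF1*, and their part in its level was not tested. *IRS2* had *RPTOR* at 0.47 and *GRB14* at -0.42, beside 4.41% positive and 3.81% negative genes overall. Of the 9 follicular markers, 2 reached that p with *IRS2*, the thyroid transcription factor gene *PAX8* at 0.50 and *TG* at 0.48 (adjusted p = 0.438 and 0.477 by permutation). The median rho of that list was 0.35. Of the 7 muscle markers, *MYH2* at -0.52 and *MYH1* at -0.47 reached it, at median levels of only 0.43 and 1.87, and *TTN* was at 0.30. The part of these cell types in the *IRS2* level was not tested. *IRS2* also had a rho of 0.57 (permutation test, p = 0.00371) with the share of reads taken by the 10 highest genes of a tumor.

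For the RNA-binding genes, 3 of the 51 pathway genes reached the unadjusted p below 0.05 with *IGF2BP2*, 2 positive and 1 negative, beside 2.59% and 2.66% of all genes. They were the receptor adaptor *GRB14* at 0.48, *HMGA1*, the paralog of *HMGA2*, at 0.42, and *IGFBP5* at -0.41. Among the cell markers, 1 of 9 follicular (*TSHR*, -0.51), 1 of 7 C-cell (*CALCB*, -0.44), 1 of 6 endothelial (*KDR*, -0.43) and 1 of 7 muscle markers (*MYH2*, 0.42) reached that p with *IGF2BP2*. The median rho of the follicular list was -0.07 and that of the endothelial list -0.12. *CALCB* and *MYH2* had median levels of 1.22 and 0.43 over the 30 tumors, so both of their coefficients mostly rank counts near 0. With *IGF2BP3*, 4 pathway genes had a positive and 6 a negative rho, beside 7.63% and 9.64% of all genes, with *SOS1* at 0.49 and *PIK3R2* and *SH2B1* at -0.60 each. Of the 3 tested genes whose mRNA the IGF2BP proteins are known to bind, *MYC* had a rho of -0.43 with *IGF2BP3* (p = 0.0334 by permutation, adjusted p = 0.263). The other genes of that list did not reach the unadjusted p, with *ACTB* at -0.16 and *CD44* at 0.26. With *IGF2BP2*, 0 of the 3 reached it, and *MYC* was at -0.12. Leukocyte markers were found beside *IGF2BP3*, with *PTPRC* at 0.56 and *CD163* at 0.52, 2 of 8 in that list, and the endothelial *PECAM1* at 0.51, and their part in its level was not tested. The let-7 inhibitors *LIN28A* and *LIN28B* had at most 17 counts in any tumor and did not pass the count limit.

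Because no gene passed the adjusted test, the genes most like each member are named here by rho alone, a choice made after the values were seen, among named genes whose normalized counts had a median of 100 or more. They were *ACSF2* at 0.78 and *SMAD3*, a mediator of TGF-beta signaling, at 0.76 for *IGF2BP2*, and *CCNYL1* at 0.75 and *ABCC9* at 0.74 for *IGF2BP3*. *ARMH4* at 0.76 and *CD36*, a fatty acid receptor of endothelium and macrophages, at 0.73 were most like *IGF1*, and the vitamin D receptor gene *VDR* at 0.77 and *CILP2* at 0.75 most like *IGF2*. For the receptors these were the zinc finger genes *ZNF75D* at 0.74 and *ZNF449* at 0.70 (*IGF1R*), and the matrix genes *ECM1* and *TNXB* at 0.79 each (*INSR*). *ABHD1* at 0.81 and *CDK18* at 0.80 were most like *IRS2*. In the opposite direction, *IGF1* had a rho of -0.84 with *UTP25*, -0.78 with *MEX3C* and -0.77 with *NOP56*, of which *UTP25* and *NOP56* act in ribosome biogenesis, and *IGF2BP2* had a rho of -0.73 with the actin-severing gene *CFL2*. All of these coefficients are over the same 25 tumors, and their adjusted p values lay between 0.0561 and 0.288.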

How the data were processed

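The authors mapped 150-base paired-end reads of Zymo-Seq RiboFree libraries to CanFam3.1 (Ensembl version 99) with STAR v2.6.1a and deposited raw counts of reads per Ensembl gene and tumor, the unit used here. The strand setting of the counting is not given in the sources used here, so genes that overlap on opposite strands, and close paralogs, are uncertain. Median-of-ratios size factors were taken over 15611 genes with a count in all 30 tumors. The 18711 genes that reached 10 counts in 5 or more tumors were tested. Tumors were clustered (Ward, 2 branches) on genes whose level had a mean over 2 and a variance over 6, without members and pathway genes. Spearman's rho was tested over the larger branch with 100000 two-sided permutations and Benjamini-Hochberg adjustment over all genes, called below 0.05. The procedure was tested on simulated data. Counting limits cover counting error only, because molecules were not counted. All tumors were left without a group, so p-values measure variation between tumors. The members and gene lists were chosen with earlier results of these data known. Named genes were the members, list genes, neighbours (3 per side) and the 3 highest and lowest rho among called genes, of which there were none. Gene order came from RefSeq UU_Cfam_GSD_1.0 by symbol (15340 matches), without coordinates. *IGFBP1*, *PIK3R3* and *H19* had no row. Alternatives were TMM scaling (edgeR 4.0.16, R 4.3.3), a pseudocount of 8 in place of 1, other count filters, Pearson's r together with a pseudocount of 8, ranks centred within branches, leaving out TC1088 or TC538, and, added after seeing the data, a t approximation and leaving out TC1994. Python 3.11.15, numpy 2.4.6, pandas 2.3.3, scipy 1.17.1 and matplotlib 3.10.9 were used.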

Additional observations from a re-analysis of the deposited data

How the results depend on the processing

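The median levels of the members moved by less than the SD over tumors under TMM scaling, a pseudocount of 8 and without TC1088, except that of *IGF2BP1*, which was 3.0 with a pseudocount of 8 because its median count is 0. The count of genes called, 0 for each member, changed with the tumors and the test. Without TC1088 it was 40 for *IGF2BP3*, 8 for *IRS2* and 4 for *IGF1*, and without TC538 it was 5 for *IGF1*. Pearson's r together with a pseudocount of 8 called 20 genes for *IGF1*, and the filter of 10 counts in every tumor of the branch called 11 for *IGF1* and 7 for *INSR*, over fewer genes. The t approximation called 31 for *INSR*, 20 for *IGF1*, 6 for *IRS2*, 4 for *IGF2*, and 1 for *IGF2BP3* and *IGF1R*. The cause of the changes without TC1088 or TC538 was not tested. No pair of members was called under TMM scaling, ranks centred within branches, Pearson's r with a pseudocount of 8, or without TC1088 or TC538, and no pathway gene under TMM scaling or without TC1088, the alternatives run for each. The rho of *IGF1R* with *INSR* ranged from -0.58 to -0.47 over its alternatives. That of *IGF2BP3* with *IGF1R* was -0.34 (permutation test, p = 0.102) without TC1088. Counts of 10 or fewer in several tumors limit *IGF2BP2* and *IGF2* at their low ends, and a library such as TC538 limits them most.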

Other observations

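The levels of *IGF2BP2* fell into an upper set of 19 tumors and a lower set of 11, 2.11 apart. In the upper set they were 11.60 in TC2089, 11.53 in TC812, 11.29 in TC1953, 10.82 in TC640, 10.48 in TC1123, 10.45 in TC2402, 10.27 in TC1164 and 10.09 in TC815. They went on with 9.66 in TC2110, 9.60 in TC1213, 9.57 in TC1869, 9.43 in TC1994, 9.35 in TC67, 9.31 in TC1744, 8.61 in TC1020, 8.55 in TC902, 8.40 in TC22, 8.21 in TC1088 and 7.27 in TC1473. In the lower set they were 5.16 in TC2288, 4.96 in TC1601, 4.66 in TC1593, 4.24 in TC1218, 4.06 in TC2011, 3.47 in TC1241, 3.03 in TC538, 2.90 in TC1979, 2.25 in TC627, 2.06 in TC1936 and 1.83 in TC2289. Both sets held tumors of both branches of the clustering, since TC1020 and TC1473 lay in the upper and TC1601, TC1936 and TC2289 in the lower. The sets were read from the values themselves and were not compared in any other measure.

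Some members of the wider pathway varied more than the receptors. *IGFBP2*, which encodes a secreted IGF-binding protein, had a level of 4.08 at the lowest, 13.36 at the median and 16.82 in TC1869, where it was counted 132015 times. *INSRR*, the receptor gene related to *INSR*, had 0 counts in its lowest tumor and 1663 in TC2289, its highest. *IGF2R*, which encodes the receptor that clears IGF2, ranged only from 10.92 to 13.96. *GHR*, the growth hormone receptor gene, ranged from 4.73 to 10.96, and its rho with *IGF1* over the 25 tumors of the larger branch was 0.31 (p = 0.138 by permutation, adjusted p = 0.638).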
